A study of Homo sapiens with 77 samples.

Results

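The cholesterol and fatty acid synthesis genes described here are 33 human genes, taken by symbol from both RNA-seq count tables of the study, which list 35813 genes in the MI-503 experiment and 21455 in the combination experiment. They comprise 27 targets of the sterol regulatory element-binding proteins (SREBPs), 3 targets of the liver X receptors (LXRs), namely ABCA1, ABCG1 and MYLIP, and the regulators SREBF1, INSIG2 and RXRA. The RNA came from 5 cell lines of diffuse large B-cell lymphoma (DLBCL). KARPAS422, DB and SuDHL10 carry EZH2 mutations, and Farage and SUDHL5 are EZH2 wildtype. In the MI-503 experiment, KARPAS422, DB, Farage and SUDHL5 received MI-503, an inhibitor of menin (MEN1), at 800 nM for 3 days, or its vehicle DMSO. In the combination experiment, KARPAS422 received the EZH2 inhibitor EPZ-6438 (tazemetostat) at 1 µM together with the menin inhibitor VTP50469 at 330 nM, either drug alone, or DMSO for 48 h, and SuDHL10 received the same 4 treatments for 24 h. Each condition had 2 libraries. GEO's labels do not say that these came from separate cultures, so the p-values measure the spread between libraries, which may be technical. The study states that the lines were not authenticated.

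Cells make cholesterol from acetyl-CoA through mevalonate, farnesyl diphosphate, squalene and lanosterol, and make fatty acids from the same acetyl-CoA through malonyl-CoA. When membrane sterol is low, SCAP carries the SREBP precursors out of the endoplasmic reticulum for cleavage, and the freed factors switch on nearly every enzyme of both routes, whereas INSIG proteins hold SCAP back when sterol is plentiful. LXRs respond in the opposite situation: oxysterols bind them, and as heterodimers with a retinoid X receptor they switch on sterol export through ABCA1 and ABCG1 and the loss of lipoprotein receptors through MYLIP, an E3 ubiquitin ligase also called IDOL.

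The promoters of 4 members are shown: SREBF2, which held the sterol element searched for, LSS and MVD, the sterol genes that rose most in SUDHL5, and ABCA1, the LXR target with the largest changes. They are taken from RefSeq on GRCh38.p14, each from 250 bases before the annotated start to 50 bases from it, 5′ to 3′ on the gene's own strand. They are SREBF2 at chr22:41832855-41833154 (+), MVD at chr16:88663042-88663341 (−), LSS at chr21:46228725-46229024 (−) and ABCA1 at chr9:104928106-104928405 (−). Capitals mark matches, on either strand, to the sterol regulatory element TCACNCCAC in SREBF2, to the CCAAT box in SREBF2, MVD and LSS, and to a loose LXR direct repeat, AGGTNA followed after 4 bases by NGGTCA, in ABCA1.
SREBF2: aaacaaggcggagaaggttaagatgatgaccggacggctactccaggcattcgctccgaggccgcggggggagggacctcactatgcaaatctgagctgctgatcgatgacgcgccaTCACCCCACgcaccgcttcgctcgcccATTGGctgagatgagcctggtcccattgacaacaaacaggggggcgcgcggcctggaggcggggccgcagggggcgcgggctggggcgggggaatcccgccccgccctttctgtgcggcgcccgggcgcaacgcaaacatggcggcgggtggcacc
MVD: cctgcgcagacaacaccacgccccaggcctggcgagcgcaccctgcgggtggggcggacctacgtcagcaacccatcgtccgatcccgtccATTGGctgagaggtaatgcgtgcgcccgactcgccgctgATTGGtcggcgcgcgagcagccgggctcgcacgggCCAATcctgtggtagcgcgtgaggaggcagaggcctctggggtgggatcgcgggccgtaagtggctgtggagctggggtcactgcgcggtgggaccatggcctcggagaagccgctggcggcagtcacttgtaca
LSS: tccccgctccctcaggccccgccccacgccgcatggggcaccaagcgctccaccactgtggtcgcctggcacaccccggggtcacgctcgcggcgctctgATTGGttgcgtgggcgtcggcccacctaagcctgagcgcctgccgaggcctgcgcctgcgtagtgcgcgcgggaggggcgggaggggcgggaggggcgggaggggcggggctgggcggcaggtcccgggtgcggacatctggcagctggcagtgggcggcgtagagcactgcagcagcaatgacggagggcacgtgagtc
ABCA1: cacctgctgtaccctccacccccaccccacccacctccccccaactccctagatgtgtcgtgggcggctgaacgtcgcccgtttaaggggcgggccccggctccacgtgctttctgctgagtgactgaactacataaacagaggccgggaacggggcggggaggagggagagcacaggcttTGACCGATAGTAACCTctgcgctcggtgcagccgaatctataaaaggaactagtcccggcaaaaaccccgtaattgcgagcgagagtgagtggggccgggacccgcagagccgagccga
A promoter was matched for 28 of the 33 members, among 35116 promoters of this length in the table. SQLE, ACAT2, ABCG1, FASN and FDFT1 had no match. The sterol regulatory element occurred in 1 member promoter, that of SREBF2, which encodes SREBP2 itself, and in 1.13% of all promoters. CCAAT, the site of the factor NF-Y, occurred in 17 of the 28 member promoters (60.7%) and in 34.6% of all promoters. The strict LXR repeat (DR4, AGGTCA followed after 4 bases by a second AGGTCA) occurred in 0 member promoters and in 0.0199% of all, and the looser form above, which contains every strict match and was chosen after the strict search, occurred in that of ABCA1 and in 0.094% of all. These matches describe letters in a short window only.

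Total counts per library ranged from 13034958 to 54883332 across the MI-503 experiment and from 8956156 to 31573027 in the combination experiment. All 5 B cell markers examined had counts in all 32 libraries, at a summed 2230 to 3742 CPM (counts relative to the scaled library size). The T cell markers summed to 155.8 to 302.5 CPM in KARPAS422 and to at most 3.34 CPM in the other lines. By marker sums, a pair of libraries stood apart from their replicates. KARPAS422 with both drugs, replicate 2, had 5.45 CPM over the 5 adipocyte markers (4 with a count), against 0.312 CPM (3 with a count) in replicate 1, and Farage with MI-503, replicate 1, had 79.9 CPM over the 12 keratinocyte markers (9 with a count), against 21.3 CPM (10 with a count) in replicate 2. Other groups also had replicates that differed. Over genes with at least 20 counts, the chi-square per gene between replicates was 50.3 in KARPAS422 with both drugs and 6.9 in Farage with MI-503. In the combination experiment it was 29.5 in SuDHL10 with EPZ-6438, 22.6 in SuDHL10 with DMSO and 16.5 in KARPAS422 with DMSO. The remaining groups had at most 5.35. In DB, depth went with treatment: 52236459 and 46170498 counts in the MI-503 libraries, against 14695930 and 15474692 in the DMSO libraries. In the combination experiment CYP51A1 had 1 count, FADS1 0 and ACACA 756 over 16 libraries, where the MI-503 experiment gave 137200, 50329 and 73234, so CYP51A1 and FADS1 could not be tested there. LSS was also lower there, at 4.44 CPM per kilobase of annotated exon in KARPAS422 under DMSO, against 14.2 in the MI-503 experiment. In GENCODE v44, 74.1% of the exon bases of CYP51A1, 5.6% of those of FADS1 and 0 of those of ACACA lie in exons of other genes, and the reason for the gap between the tables was not tested.

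The first question was how the pathway stood in each line before any drug. In the DMSO libraries of the MI-503 experiment all 33 members differed between the 4 lines at an adjusted p under 0.1, the threshold used throughout, and 31 also differed by more than 1.5-fold between the highest and the lowest line. Over all genes 97.1% met the first criterion and 85.3% the second, so these counts do not set the members apart. Farage, an EZH2-wildtype line, had the highest level of 20 members, KARPAS422 of 6, DB of 4 and SUDHL5 of 3. DB had the lowest level of 16, SUDHL5 of 10, KARPAS422 of 5 and Farage of 2. In the order of levels, 87 of the 99 pairs of neighbouring lines differed in their own contrast. Ranks and neighbouring pairs were not counted over all genes, so these counts do not show a trait particular to the members. Between any pair of lines 29 to 32 members differed, with 78.3% to 82.1% of all genes.

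**Figure D1:**
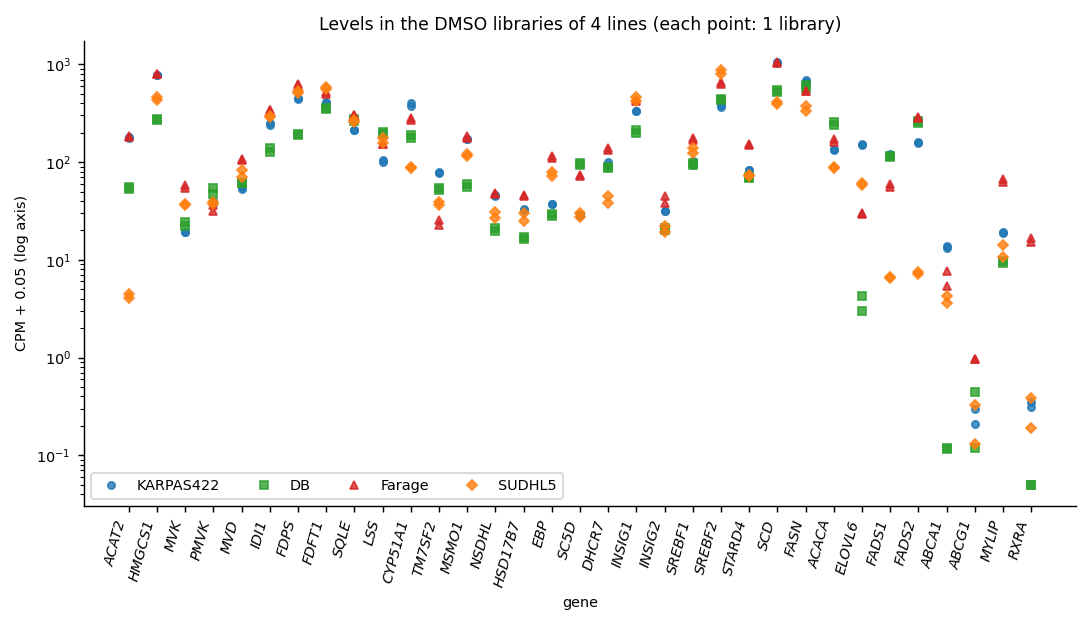
Level of each member (CPM + 0.05, log axis; genes along the x axis) in the DMSO libraries of the MI-503 experiment, 2 points per line. SUDHL5 lies far below the other lines for ACAT2, FADS1 and FADS2, and DB lies lowest for ELOVL6, ABCA1 and RXRA.

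Among the SREBP targets the widest ranges were in genes of fatty acid elongation and desaturation and in ACAT2, the thiolase that joins acetyl-CoA units. ACAT2 had 178 and 180 CPM in KARPAS422, 52.6 and 55.5 in DB, 182 and 186 in Farage, and 4.46 and 4.04 in SUDHL5. FADS2, the delta-6 desaturase, had 158 and 160 CPM in KARPAS422, 261 and 254 in DB, 292 and 281 in Farage, and 7.19 and 7.52 in SUDHL5. SUDHL5 was low for both genes, with no overlap between any lines for FADS2. FADS1, the delta-5 desaturase, had 122 and 119 CPM in KARPAS422, 112 and 116 in DB, 55.2 and 60 in Farage, and 6.7 and 6.48 in SUDHL5. ELOVL6, which elongates palmitate, had 152 and 148 CPM in KARPAS422, 4.17 and 2.93 in DB, 29.1 and 30 in Farage, and 61.6 and 58.7 in SUDHL5. FADS1 and FADS2 lie next to each other on chromosome 11 and overlap on opposite strands (FADS1 at 61799627 to 61829318, minus strand, FADS2 at 61792980 to 61867354, plus strand, hg38). Since no source used here says whether counting used strand, reads from their shared bases cannot be assigned with certainty.

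Genes of the common sterol route other than ACAT2 had narrower ranges than the genes above, as did SCD of the fatty acid branch. HMGCS1, the cytosolic HMG-CoA synthase, had 786 and 777 CPM in KARPAS422, 268 and 274 in DB, 800 and 804 in Farage, and 463 and 436 in SUDHL5, a 3.16-fold range between the fitted lines. FDPS, which makes farnesyl diphosphate, had 440 and 452 CPM in KARPAS422, 192 and 190 in DB, 615 and 635 in Farage, and 540 and 514 in SUDHL5. DB was the lowest line for both. CYP51A1, the lanosterol demethylase, had 398 and 378 CPM in KARPAS422, 178 and 191 in DB, 270 and 280 in Farage, and 88.6 and 86.7 in SUDHL5. SCD, which makes oleate from stearate, had 1033 and 1061 CPM in KARPAS422, 520 and 548 in DB, 1043 and 1055 in Farage, and 414 and 393 in SUDHL5. KARPAS422 and Farage overlapped for SCD, although their contrast passed the test. Per kilobase of annotated exon, the level of SCD stood highest of the members in KARPAS422, at 199.7 ± 3.77 CPM per kb (SD, n = 2), and that of RXRA lowest, at 0.0231 ± 0.00208.

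The LXR targets were at low to moderate levels. ABCA1, the cholesterol exporter (chromosome 9, 104781006 to 104928155, minus strand), had its highest DMSO level in KARPAS422 (13.7 and 13.3 CPM), followed by Farage (7.56 and 5.3), SUDHL5 (3.59 and 4.25) and DB (0.0683 and 0.065, 1 count in each library), and each neighbour in this order differed. ABCG1, its partner in export to high-density lipoprotein (chromosome 21, 42199689 to 42297244, plus strand), was highest in Farage at 0.927 and 0.916 CPM, while DB, KARPAS422 and SUDHL5, at 0.0683 to 0.39 CPM, followed in that order, and neither neighbouring pair among them passed the test. MYLIP (chromosome 6, 16129086 to 16148248, plus strand) had 66.4 and 62.7 CPM in Farage, 18.6 and 19.1 in KARPAS422, 14.2 and 10.6 in SUDHL5 and 9.77 and 9.17 in DB, and each neighbour differed. RXRA, a partner of the LXRs (chromosome 9, 134317098 to 134440585, plus strand), had 15.2 and 16.6 CPM in Farage, at most 0.336 in KARPAS422 and SUDHL5, and no count in the DB controls. RXRB, another retinoid X receptor gene outside the members, stood at 13.9 CPM per kb of exon in DB, 10.25 in Farage, 13.5 in KARPAS422 and 13.9 in SUDHL5. RXRA stood at 1.31 CPM per kb in Farage. In the combination experiment RXRB stood at 0 under DMSO in both lines, and the reason was not tested.

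In the combination experiment 25 of the 31 members tested differed between SuDHL10 and KARPAS422 under DMSO, 18 higher and 7 lower in SuDHL10 (30.6% and 31.8% of all genes, 62.4% in either direction). Past 1.5-fold 11 were higher and 6 lower (20.9% and 25.7%). Scaled by library totals alone, which moved the median of all genes to −0.19 from −0.01 on the log2 scale, the split was 13 and 11. FADS2 had 1.69 and 1.82 CPM in SuDHL10, against 174 and 180 in KARPAS422, a log2 difference of −6.67 ± 0.20 (SE). ELOVL6 had 26 and 26.1 CPM in SuDHL10, against 193 and 159 in KARPAS422. ABCG1 went the other way, with 27.9 and 25 CPM in SuDHL10, against 0.156 and 0.873 in KARPAS422 (log2 difference 5.46 ± 0.36). ABCA1 was also higher, at 36.9 and 41.2 CPM in SuDHL10, against 14.6 and 14.9 in KARPAS422 (log2 difference 1.38 ± 0.16). None of these 4 genes overlapped between the lines.

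Among the sterol enzymes, NSDHL, the sterol-4-alpha-carboxylate dehydrogenase, had 197 and 167 CPM in SuDHL10, against 62.1 and 62.6 in KARPAS422. EBP, the sterol isomerase, had 173 and 147 CPM in SuDHL10, against 67.5 and 68 in KARPAS422. MVK, mevalonate kinase, had 87.1 and 67.6 CPM in SuDHL10, against 26.8 and 31.6 in KARPAS422. TM7SF2, a sterol C14 reductase, and SQLE, squalene epoxidase, were lower in SuDHL10. TM7SF2 had 41.9 and 30.7 CPM in SuDHL10, against 97.6 and 119 in KARPAS422, and SQLE had 137 and 144 CPM in SuDHL10, against 259 and 234 in KARPAS422 (log2 difference −0.83). RXRA had 4.6 and 3.17 CPM in SuDHL10, against 0.0781 and 0.411 in KARPAS422. MYLIP was lower in SuDHL10, at 19.8 and 20.3 CPM, against 29.8 and 25.8 in KARPAS422 (log2 difference −0.49 ± 0.16, adjusted p = 0.020), a call lost without DMSO replicate 1 of SuDHL10 (adjusted p = 0.168) or of KARPAS422 (adjusted p = 0.191).

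The next question was what MI-503 did to the pathway in each of 4 lines. ABCA1 rose with MI-503 in DB, Farage and SUDHL5 and fell in KARPAS422. The SREBP targets also moved in different directions from line to line, and in KARPAS422 and SUDHL5 some of them moved further than ABCA1. In DB, ABCA1 had 1.65 and 1.31 CPM with MI-503 (90 and 64 counts), against 0.0683 and 0.065 CPM with DMSO (1 and 1 counts). The libraries did not overlap. With 2 counts in the controls, the ratio of the summed counts per depth was 22.4, with a 95% exact interval of 6.09 to 186 that covers counting error only. ABCG1 in DB had 1.12 and 1.48 CPM with MI-503 (61 and 72 counts), against 0.0683 and 0.39 CPM with DMSO (1 and 6 counts), a ratio of 5.52 (2.61 to 14). MYLIP in DB had 31.2 and 29.2 CPM with MI-503, against 9.77 and 9.17 with DMSO (log2 change 1.68 ± 0.08, adjusted p = 5.2e-09). All 3 LXR targets therefore rose in DB, with fitted changes of 4.41, 2.46 and 1.68, and with every library thinned to equal depth they were 4.07, 2.56 and 1.75. In bulk libraries, more cells with a transcript and more RNA per cell cannot be told apart.

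**Figure D2:**
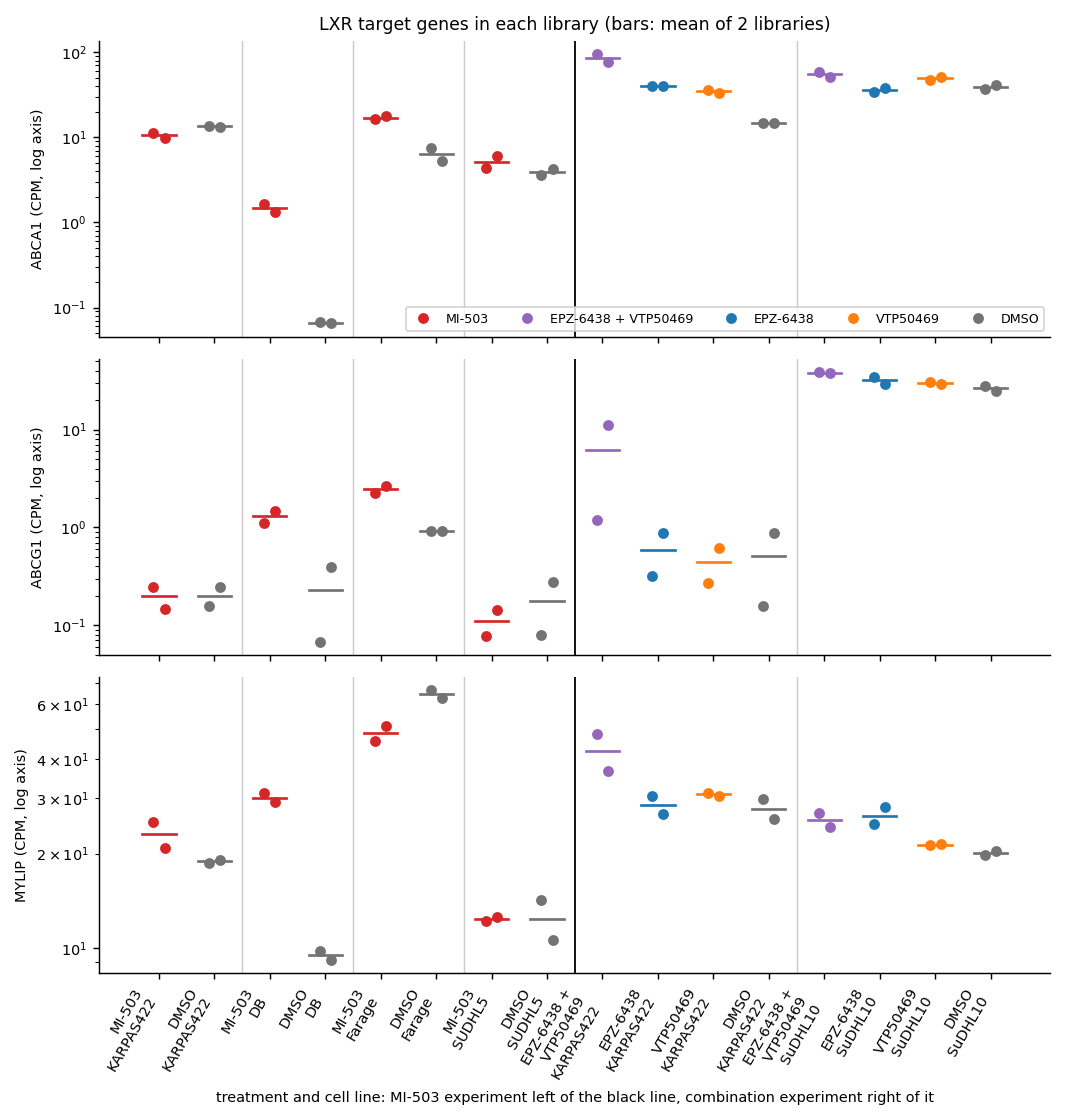
Level of ABCA1, ABCG1 and MYLIP (CPM, log axis) in each library, by treatment and line, with a bar at the mean of the 2 libraries; MI-503 experiment left of the black line, combination experiment right of it. ABCA1 with MI-503 lies above DMSO in DB and Farage and below it in KARPAS422, and in the combination experiment it is highest in KARPAS422 with both drugs.

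In Farage, ABCA1 had 16.5 and 17.7 CPM with MI-503, against 7.56 and 5.3 with DMSO (log2 change 1.39 ± 0.14, adjusted p = 0.00018). ABCG1 had 2.22 and 2.66 CPM with MI-503, against 0.927 and 0.916 with DMSO (log2 change 1.38 ± 0.31, adjusted p = 0.013). Neither gene overlapped between the groups, but the ABCG1 call was lost without DMSO replicate 1 (adjusted p = 0.133) or DMSO replicate 2 (adjusted p = 0.152). MYLIP went the other way in Farage, with 45.8 and 51.2 CPM with MI-503, against 66.4 and 62.7 with DMSO (log2 change −0.44 ± 0.06, adjusted p = 0.00059). In KARPAS422, ABCA1 fell to 11.3 and 9.9 CPM with MI-503, against 13.7 and 13.3 with DMSO (log2 change −0.34 ± 0.08, adjusted p = 0.0056), and MYLIP rose to 25.1 and 20.9 CPM, against 18.6 and 19.1 (log2 change 0.30 ± 0.08, adjusted p = 0.0077). The MYLIP call in KARPAS422 was lost without MI-503 replicate 1 (log2 change 0.17, adjusted p = 0.168). ABCG1 in KARPAS422, at 0.247 and 0.147 CPM with MI-503, against 0.157 and 0.244 with DMSO, did not pass the test.

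SUDHL5 gave the least firm LXR result. ABCA1 had 4.33 and 6.03 CPM with MI-503, against 3.59 and 4.25 with DMSO, so that the ranges lay close without overlapping (log2 change 0.49 ± 0.19, adjusted p = 0.060). That call was lost without DMSO replicate 1 (0.31, adjusted p = 0.344), without MI-503 replicate 2 (0.23, adjusted p = 0.529), with DESeq2 (adjusted p = 0.252), at equal depth (adjusted p = 0.105) and with the replicate number as a block (0.40, adjusted p = 0.115). MYLIP in SUDHL5, at 12.2 and 12.6 CPM with MI-503, against 14.2 and 10.6 with DMSO, did not pass the test, and ABCG1, at 0.0773 and 0.144 CPM with MI-503, against 0.079 and 0.279 with DMSO, was too low to be tested.

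In SUDHL5 the squalene and sterol steps rose. With MI-503, 18 of the 31 members tested rose and 3 fell there (26.3% and 28.7% of all genes, 55% in either direction), and 17 of the 27 SREBP targets rose and 2 fell, with a median log2 change of 0.22 over the SREBP targets and −0.00 over all genes. Of the 11 genes of the squalene and sterol steps 10 rose and 0 fell, with a median of 0.39, and NSDHL, at 29.4 and 32.9 CPM with MI-503, against 31 and 27 with DMSO, was the gene that did not pass. LSS, lanosterol synthase (chromosome 21, 46188141 to 46228824, minus strand), had 265 and 293 CPM with MI-503, against 177 and 157 with DMSO (log2 change 0.75 ± 0.05, adjusted p = 3.9e-06). MVD, which decarboxylates mevalonate diphosphate (chromosome 16, 88651935 to 88663161, minus strand), had 114 and 136 CPM with MI-503, against 82.7 and 70.6 with DMSO (log2 change 0.71 ± 0.07, adjusted p = 3.5e-05). Both genes stood clear of their controls in each library, and they were the only members in SUDHL5 past 1.5-fold, where 6.71% of all genes rose and 7.41% fell.

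The other sterol genes of SUDHL5 rose by smaller amounts. DHCR7, the last reductase of the route, rose to 58.9 and 60.5 CPM with MI-503, against 45.3 and 38.4 with DMSO (log2 change 0.51), and SQLE to 356 and 373 CPM, against 268 and 260 (0.48). MSMO1 (0.42), TM7SF2 and HSD17B7 (0.39 each), CYP51A1 (0.38), EBP (0.36), SC5D (0.32) and FDFT1 (0.19) also passed, as did STARD4, a sterol carrier (0.38), and INSIG1, a feedback target of SREBP (0.22). The mevalonate steps were mixed: HMGCS1 (0.18) and MVD rose, PMVK (−0.35) fell, and ACAT2, MVK, IDI1 and FDPS did not pass. SREBF1, which encodes SREBP1, fell (−0.44), while SREBF2 rose by 0.12. The adipocyte markers summed to 14 to 15.4 CPM with MI-503 in SUDHL5 (3 of 5 with a count), against 6.69 to 7.88 CPM with DMSO (3 to 4 of 5), and their part in these changes was not tested.

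**Figure D3:**
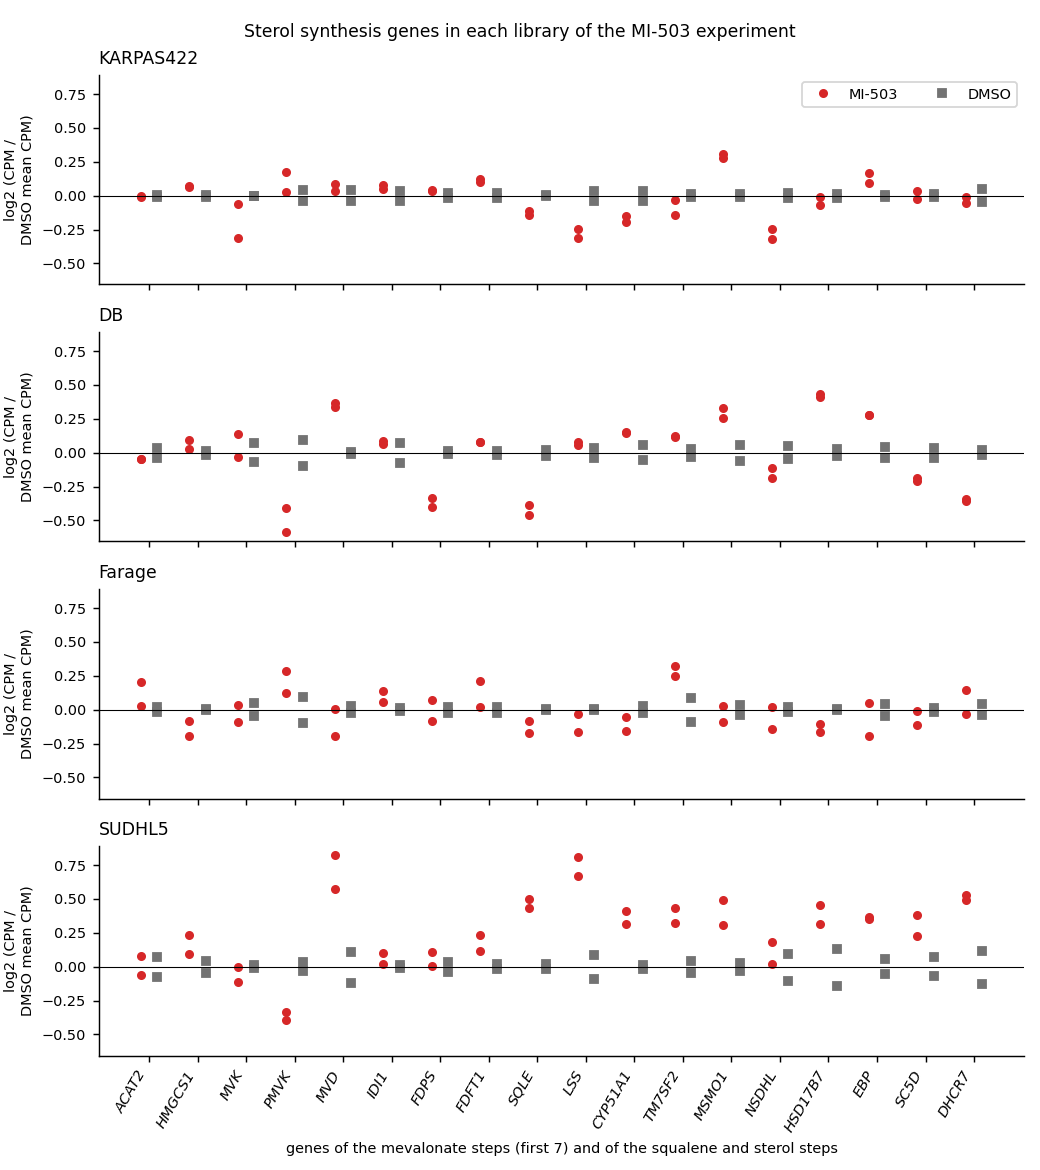
Level of each gene of the mevalonate steps (the first 7) and of the squalene and sterol steps, as log2 of CPM over the DMSO mean of the same line, in each MI-503 library (circles) and DMSO library (squares); 1 panel per line. In SUDHL5 both MI-503 libraries lie above both DMSO libraries for 10 of the 11 squalene and sterol genes, whereas the other lines scatter on both sides of 0. How many of all genes separate in this way was not counted.

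In DB the sterol genes were divided and the fatty acid genes fell. With MI-503, 14 of the 32 members tested rose there and 12 fell (34.5% and 34.7% of all genes, 69.2% in either direction). Past 1.5-fold 3 rose and 4 fell (16.2% and 10.2% of all genes). Of the 11 squalene and sterol genes 7 rose, led by HSD17B7 (0.43) and MSMO1 (0.30), and 3 fell, namely SQLE (−0.42), DHCR7 (−0.35) and SC5D (−0.19). Of the mevalonate genes MVD (0.35) and HMGCS1 (0.07) rose and PMVK (−0.49) and FDPS (−0.36) fell. All 6 genes of the fatty acid branch fell, with a median log2 change of −0.70, against 0.02 over all genes.

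FASN, the fatty acid synthase (chromosome 17, 82078338 to 82098294, minus strand), had 340 and 340 CPM with MI-503 in DB, against 612 and 579 with DMSO (log2 change −0.81 ± 0.03, adjusted p = 5.3e-10). ACACA, acetyl-CoA carboxylase 1 (chromosome 17, 37084992 to 37406836, minus strand), had 149 and 156 CPM with MI-503, against 257 and 242 with DMSO (−0.71 ± 0.04, adjusted p = 8.3e-09). FADS2 had 158 and 161 CPM with MI-503, against 261 and 254 with DMSO (−0.68 ± 0.03, adjusted p = 2.1e-09). These 3 genes did not overlap between the groups. ELOVL6 (chromosome 4, 110045846 to 110199199, minus strand) was near the floor of this line, at 1.83 and 1.83 CPM with MI-503, against 4.17 and 2.93 with DMSO (−0.95 ± 0.22, adjusted p = 0.0025). SCD (−0.29) and FADS1 (−0.19) fell by less, and SREBF1 fell by 0.47. At equal depth the 6 fatty acid genes were all still called, with FASN at −0.78, ACACA at −0.67, FADS2 at −0.66 and ELOVL6 at −0.95, and 25 members passed (13 higher, 12 lower), HMGCS1 being the call lost. The keratinocyte markers summed to 34.2 to 34.7 CPM with MI-503 in DB (10 to 11 of 12 with a count), against 19.3 to 21.1 CPM with DMSO (3 to 5 of 12), and their part was not tested.

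**Figure D4:**
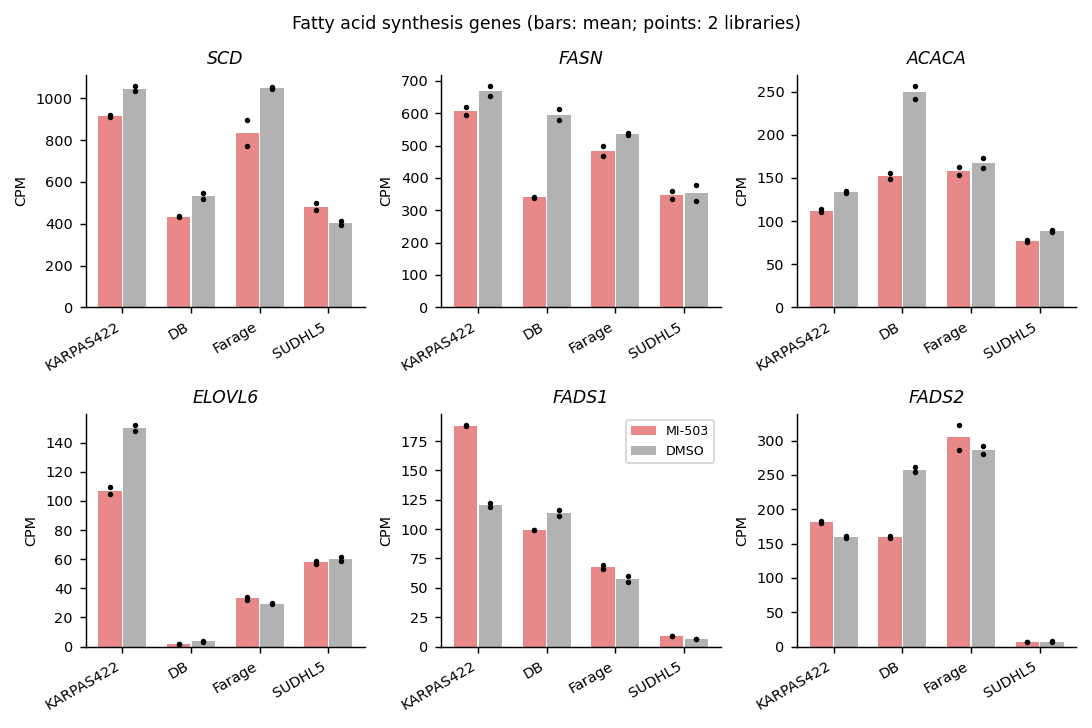
Level (CPM) of the 6 fatty acid genes in the MI-503 experiment, MI-503 left of DMSO in each line; bars are means and points the 2 libraries. In DB all 6 genes are lower with MI-503, and in KARPAS422 FADS1 and FADS2 are higher while the other 4 are lower.

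KARPAS422 showed small, divided changes. With MI-503, 10 of 33 members rose and 11 fell (25.5% and 26.3% of all genes, 51.8% in either direction), and only FADS1 (chromosome 11) passed 1.5-fold, where 7.36% of all genes rose and 2.75% fell, with 188 and 189 CPM with MI-503, against 122 and 119 with DMSO (log2 change 0.64 ± 0.03, adjusted p = 1.5e-07). In the same branch FADS2 rose by 0.19 and ELOVL6 (110 and 105 CPM with MI-503, against 152 and 148 with DMSO, −0.49), ACACA (−0.26), SCD (−0.19) and FASN (−0.14) fell. Of the squalene and sterol genes MSMO1 (0.29), EBP (0.12) and FDFT1 (0.11) rose and NSDHL (−0.29), LSS (−0.28), CYP51A1 (−0.17) and SQLE (−0.13) fell. INSIG1 (0.29) and INSIG2 (0.28) rose while SREBF1 and SREBF2 (−0.17 each) fell. The keratinocyte markers summed to 79.6 to 82.2 CPM with MI-503 (10 of 12 with a count), against 54.7 to 56.3 CPM with DMSO (10 of 12), and their part was not tested.

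In Farage 4 of 33 members rose and 13 fell with MI-503 (12.3% and 14.7% of all genes, 27% in either direction), a split that became 9 and 9 with scaling by library totals. Past 1.5-fold 2 rose and 2 fell (2.06% and 1.48% of all genes). The regulators RXRA and INSIG2 fell. RXRA had 2.04 and 3.28 CPM with MI-503, against 15.2 and 16.6 with DMSO (log2 change −2.54 ± 0.18, adjusted p = 3e-05). INSIG2, which retains SCAP in the endoplasmic reticulum (chromosome 2, 118088452 to 118110997, plus strand), had 16.5 and 21.8 CPM with MI-503, against 44.8 and 38.5 with DMSO (−1.12 ± 0.10, adjusted p = 8.9e-05). Neither overlapped between the groups. Of the 27 SREBP targets 10 fell and 2 rose, with a median of −0.09, against 0.01 over all genes, and SCD (−0.36) fell most. The count rested on single libraries: 5 members passed without DMSO replicate 1, 7 without DMSO replicate 2, and 21 (8 higher, 13 lower) without MI-503 replicate 1, the library with the high keratinocyte sum. Without that library RXRA changed by −2.35, ABCA1 by 1.40, ABCG1 by 1.45 and MYLIP by −0.41, each past the threshold, and INSIG2 also passed. Across the Farage groups that sum was 21.3 to 79.9 CPM with MI-503 (9 to 10 of 12 with a count), against 13.7 to 15.2 CPM with DMSO (6 of 12), and the erythroid sum was 0.0819 to 26.1 CPM with MI-503 (2 of 5), against 0 to 0.143 CPM with DMSO (at most 1 of 5). The part of these markers was not tested. For the counts with 1 library left out, the share of all genes was not counted.

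Over the 4 lines, 30 of the 33 members (90.9%) passed in at least 1 line, as did 80.1% of the 16040 genes tested in at least 1 line. Among the members 16 (48.5%) rose in 1 line or more and fell in another, against 17.9% of all these genes. Of the genes tested in all 4 lines, 16 of 31 members (51.6%) and 23.7% of all 11423 did so. No member rose in all 4 lines (2.93% of all genes tested in all 4) and only ACACA fell in all 4 (5.25%), while ACAT2, IDI1 and MVK passed in none. Across the 27 SREBP targets, which are not independent of each other, the MI-503 changes of DB and SUDHL5 had a Pearson r of 0.57, KARPAS422 and DB 0.28, KARPAS422 and Farage 0.27, KARPAS422 and SUDHL5 0.15, DB and Farage −0.13, and Farage and SUDHL5 −0.24. The median change of the SREBP targets was −0.01 in KARPAS422 and −0.05 in DB (0.03 in each with library totals, so the sign is not fixed), −0.09 in Farage, and it was 0.22 in SUDHL5. The median over the LXR targets was 0.06 in KARPAS422, 2.46 in DB, 1.38 in Farage and 0.23 over the 2 genes tested in SUDHL5. Without 1 library it ranged over −0.42 to 0.32 in KARPAS422, and in DB it was 1.71 without DMSO replicate 1 and 4.17 without DMSO replicate 2. In SUDHL5 it was −0.06 in the fit of all 16 libraries, where ABCG1 also entered, so the SUDHL5 values are over different genes. The sign of the LXR median is thus not fixed in KARPAS422, and in SUDHL5 it depends on which genes enter.

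**Figure D5:**
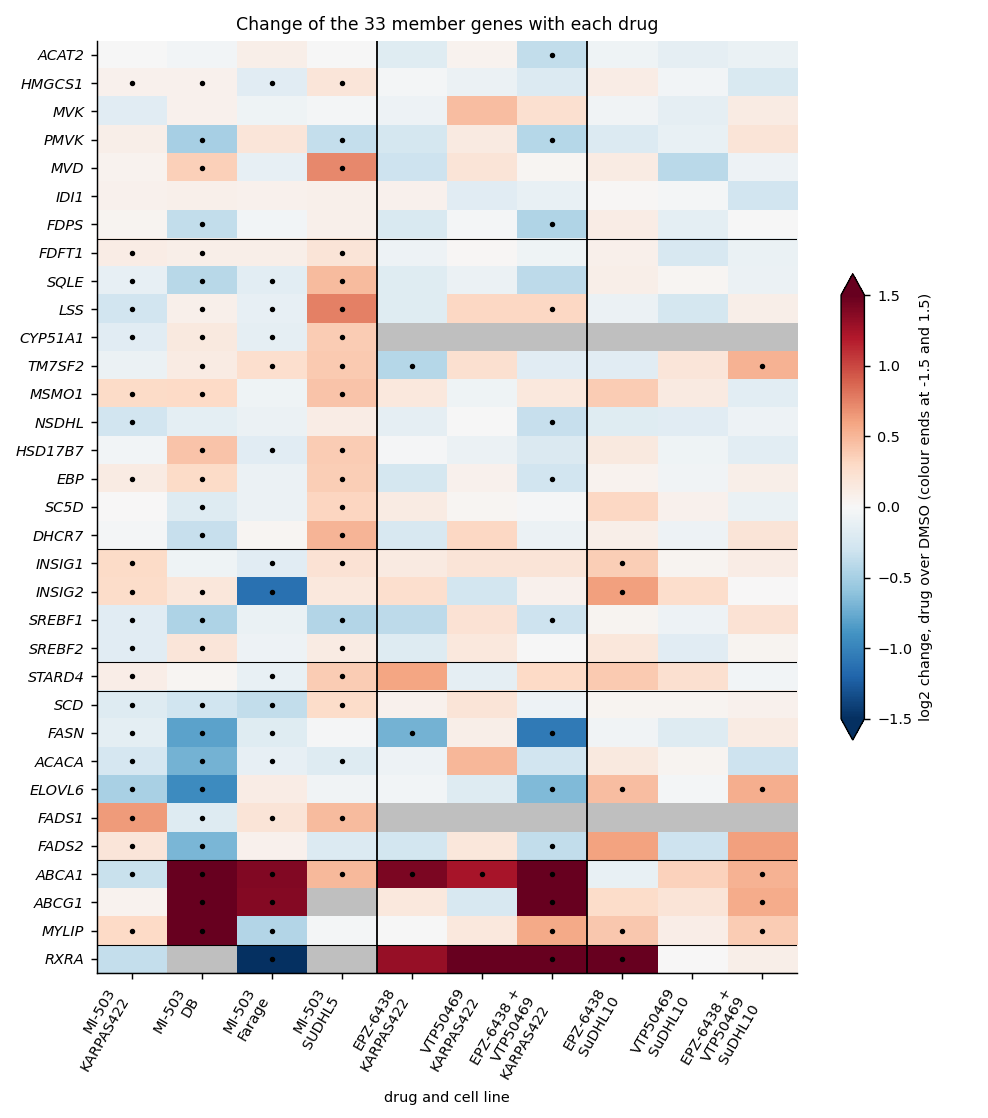
Log2 change of each member (rows, by step of the pathway) with each drug over DMSO (columns, by line); colour ends at −1.5 and 1.5, dots mark an adjusted p under 0.1 and grey cells were not tested. Dots cover most of the MI-503 columns on the left in both colours, and they are sparse in the combination experiment except for both drugs in KARPAS422.

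Whether the MI-503 changes differed between lines was tested directly, each line against Farage. The members whose change differed by more than 1.5-fold numbered 5 for KARPAS422 (3 higher and 2 lower, against 3.64% and 2.73% of all genes), 9 for DB (4 and 5, against 9.87% and 10.2%) and 6 for SUDHL5 (5 and 1, against 4.37% and 7.53%). In all, 14 of 33 members differed for KARPAS422 minus Farage (8 higher, 6 lower, against 9.52% and 14.7% of all genes and 24.2% in either direction, and 11 and 3 with RLE size factors, the medians of gene-wise ratios), 23 for DB minus Farage (12 and 11, against 19.5% and 29.1%, 48.5% in either direction) and 20 for SUDHL5 minus Farage (16 and 4, against 15.9% and 22.5%, 38.5% in either direction). ABCA1 differed in all 3, with a difference of −1.76 ± 0.17 for KARPAS422 (adjusted p = 3.6e-05), 2.98 ± 0.67 for DB (0.0031) and −0.90 ± 0.26 for SUDHL5 (0.019). ABCG1 passed in none, at −1.35 ± 0.61, 1.05 ± 0.69 and −1.48 ± 0.89 in the same order (adjusted p of 0.16, 0.25 and 0.24), but it passed for DB without DB DMSO replicate 2 (2.90, adjusted p = 0.031) and for SUDHL5 without SUDHL5 DMSO replicate 1 (−2.57, adjusted p = 0.074). For MYLIP the difference was 0.71 ± 0.11 for KARPAS422, 2.09 ± 0.11 for DB and 0.37 ± 0.13 for SUDHL5, the last a call lost without either Farage DMSO library or either SUDHL5 MI-503 library (adjusted p of 0.103 to 0.184). INSIG2 differed for each line, by 1.36, 1.26 and 1.25. The count for KARPAS422 was 8 without Farage DMSO replicate 1 and 9 without DMSO replicate 2. Without Farage MI-503 replicate 1 the counts were 17 for KARPAS422 (8 higher, 9 lower), 25 for DB (12 and 13) and 19 for SUDHL5 (15 and 4), and at equal depth that for DB was 21 (11 and 10). The 3 contrasts share the Farage libraries. For the counts with 1 library left out or at equal depth, the share of all genes was not counted.

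The same fits gave the following for single sterol and fatty acid genes, and the branches were not tested against each other. For SUDHL5 minus Farage 8 of the 11 squalene and sterol genes differed, all higher in SUDHL5, among them LSS (0.85 ± 0.07) and SQLE (0.61 ± 0.05), and the fatty acid genes had 1 higher and 1 lower, with SCD at 0.61 ± 0.07. SCD had 465 and 499 CPM with MI-503 in SUDHL5, against 414 and 393 with DMSO. For DB minus Farage 5 of the 6 fatty acid genes were lower in DB, with FASN at −0.65 ± 0.06, ACACA at −0.62 ± 0.07 and FADS2 at −0.77 ± 0.07, while the squalene and sterol genes had 5 higher and 2 lower. PMVK, phosphomevalonate kinase, with 34 and 38.3 CPM with MI-503 in DB, against 47.6 and 54.3 with DMSO, differed by −0.70 ± 0.12. RXRA counts among the 9 for DB, but its fold is not given because both DB controls held no count.

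The combination experiment asked what the EZH2 inhibitor and a menin inhibitor do singly and together in EZH2-mutant cells. The dose, time and menin inhibitor differ from those of the MI-503 experiment, so no comparison is made between them. The drug comparisons within a line share their DMSO libraries. In KARPAS422, ABCA1 had 95 and 76.5 CPM with both drugs, 40.4 and 40.5 with EPZ-6438, 35.9 and 33.5 with VTP50469, and 14.6 and 14.9 with DMSO. Every drug group lay above DMSO without overlap and the group with both drugs lay highest. The log2 change over DMSO was 2.49 ± 0.15 with both drugs (adjusted p = 0.00019), 1.41 ± 0.15 with EPZ-6438 (0.0064) and 1.24 ± 0.15 with VTP50469 (0.016). Both drugs against EPZ-6438 alone gave 1.08 ± 0.14 (0.011). The result for both drugs held in every alternative (adjusted p of at most 0.0193), but that for EPZ-6438 was lost without its replicate 2 (1.42, adjusted p = 0.218), that for VTP50469 without its replicate 1 (1.20, 0.736), and that for both drugs against EPZ-6438 without EPZ-6438 replicate 2 (1.02, 0.493), the size of each change being kept.

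The other LXR targets of KARPAS422 passed with both drugs and with neither drug alone. ABCG1 had 1.2 and 11.2 CPM with both drugs (23 and 196 counts), 0.318 and 0.872 with EPZ-6438, 0.272 and 0.618 with VTP50469, and 0.156 and 0.873 with DMSO (2 and 17 counts). RXRA had 0.416 and 5.62 CPM with both drugs, against 0.0781 and 0.411 with DMSO. For both genes the higher library was replicate 2, the one that stood apart, and the fitted changes of 3.44 ± 1.28 (adjusted p = 0.074) for ABCG1 and 3.43 ± 1.32 (0.081) for RXRA were 1.14 (0.489) and 0.66 (0.706) without it. They were also lost without DMSO replicate 1 (0.277 for ABCG1 and 0.314 for RXRA), and for RXRA without DMSO replicate 2 (0.108). The part of the adipocyte markers of replicate 2 was not tested. MYLIP had 48.3 and 36.6 CPM with both drugs, 30.4 and 26.8 with EPZ-6438, 31.3 and 30.6 with VTP50469, and 29.8 and 25.8 with DMSO, and it rose with both drugs (0.56 ± 0.17, adjusted p = 0.041), a call lost without replicate 1 of both drugs (0.11, adjusted p = 0.440) or DMSO replicate 2 (0.39, 0.175).

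FASN fell in KARPAS422 with the EZH2 inhibitor, alone or combined. FASN had 708 and 734 CPM with both drugs, 948 and 874 with EPZ-6438, 1580 and 1484 with VTP50469, and 1244 and 1647 with DMSO. It was lower than DMSO with both drugs (log2 change −1.06 ± 0.14, adjusted p = 0.0016) and with EPZ-6438 (−0.71 ± 0.14, adjusted p = 0.026), without overlap, and did not pass with VTP50469. The call for EPZ-6438 was lost without its replicate 2 (adjusted p = 0.666). ELOVL6 had 127 and 104 CPM with both drugs, 177 and 175 with EPZ-6438, 156 and 151 with VTP50469, and 193 and 159 with DMSO, and fell with both drugs over DMSO (−0.66 ± 0.16, adjusted p = 0.016) and over EPZ-6438 (−0.62 ± 0.16, adjusted p = 0.051, lost without either EPZ-6438 library at adjusted p of 0.238 and 0.493). FADS2 also fell with both drugs (−0.37), as did FDPS (−0.45), PMVK (−0.43), ACAT2 (−0.37), NSDHL (−0.34), SREBF1 (−0.31) and EBP (−0.29), whereas LSS rose (0.31).

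By counts, 31 members were tested in KARPAS422. With both drugs 5 rose and 9 fell (23.5% and 25.2% of all genes), with EPZ-6438 1 rose and 2 fell (8.27% and 10%), and with VTP50469 1 rose and 0 fell (3.18% and 0.197%). Both drugs against EPZ-6438 gave 3 higher and 1 lower (10% and 10.9%), the higher ones being ABCA1, MYLIP and LSS. In either direction these comparisons called 48.7%, 18.3%, 3.38% and 20.9% of all genes in the same order. Past 1.5-fold 3 members rose and 2 fell with both drugs (19.8% and 15.1% of all genes), 1 rose and 1 fell with EPZ-6438 (6.85% and 2.53%), 1 rose and 0 fell with VTP50469 (2.38% and 0.0908%), and 1 was higher and 1 lower for both drugs against EPZ-6438 (6.75% and 5.38%). With the replicate number as a block 5 members passed with EPZ-6438 (2 higher, 3 lower), 8 for both drugs against EPZ-6438 (6 and 2, ABCG1 among them at 3.03, adjusted p = 0.00936), 1 with VTP50469 and 15 with both drugs, and same-numbered libraries of the KARPAS422 groups correlated at 0.422 to 0.81 in their deviations. The share of all genes that passed with the block was not counted. It was not counted with 1 library left out either, so those counts do not set the members apart. Scaling mattered here: with library totals the median over all genes was 0.33, against 0.10, for both drugs, 0.08, against −0.02, for EPZ-6438 and 0.21, against 0.08, for both drugs over EPZ-6438. With library totals the splits became 9 and 3, 2 and 1, and 7 and 1 in that order, and with RLE size factors that for EPZ-6438 was 1 and 5. The median over the 25 SREBP targets tested was −0.17 with both drugs and 0.06 with library totals, in each case below the median of all genes, while that of the LXR targets was 2.49 and 2.70. With EPZ-6438 the SREBP median was −0.13 and with VTP50469 0.07, and the LXR median was 0.16 with each. That median was −0.10 at equal depth for EPZ-6438, and without DMSO replicate 2 it was 1.33 for EPZ-6438 and 1.23 for VTP50469. For both drugs it was 1.14 without replicate 2 of both drugs. Without replicate 1 of both drugs the count for both drugs was 26 (3 higher, 23 lower), and without replicate 2, the library with the adipocyte markers, it was 14 (6 higher, 8 lower). Without replicate 2 ABCA1 changed by 2.65, FASN by −1.06, ELOVL6 by −0.50 and MYLIP by 0.77, each still called, as were FDPS (−0.40), PMVK (−0.49), FADS2 (−0.34), ACAT2 (−0.29), NSDHL (−0.32), SREBF1 (−0.34) and LSS (0.34), whereas EBP was lost (adjusted p = 0.169). In the 2 groups alone without that library, a setting added after the values were seen, the count was 6 (5 higher, 1 lower) and ELOVL6 lost its call (−0.48, adjusted p = 0.188). In the 2 groups alone with every library kept, MYLIP (adjusted p = 0.119) and ABCG1 (0.183) lost theirs. The counts for EPZ-6438 and VTP50469 were 0 without EPZ-6438 replicate 2 and without VTP50469 replicate 1, and that for both drugs against EPZ-6438 was 1 and 0 without EPZ-6438 replicates 1 and 2 and 22 (3 higher, 19 lower) without replicate 1 of both drugs. In that last contrast MYLIP (0.57, adjusted p = 0.086) was lost without either EPZ-6438 library (0.198 and 0.520) or replicate 1 of both drugs (0.521).

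In SuDHL10 the number of members that passed depended on whether the replicate number entered the fit. Without it, with both drugs 5 of 31 members rose and 0 fell (13.7% and 7.93% of all genes), and with EPZ-6438 5 rose and 0 fell (12.1% and 5.39%), where 21.6% and 17.5% of all genes passed in either direction. Past 1.5-fold 0 members passed with both drugs (11% and 0.798% of all genes rose and fell) and 2 rose with EPZ-6438 (9.62% and 0.307%). With VTP50469 no member passed edgeR's test, as no gene did (0%), with 724 genes, 2 of them members, at an unadjusted p under 0.05, and 10 genes, 0 of them members, called by DESeq2. With the number as a block, 11 members passed with both drugs (9 higher, 2 lower), 13 with EPZ-6438 (11 and 2) and 3 with VTP50469 (1 and 2, ABCA1 higher at 0.35 and MVD and FDFT1 lower at −0.40 and −0.24). The share of all genes that passed with the block was not counted, so these higher counts may not be particular to the members. Nor was that share counted with 1 library left out. The deviations of same-numbered libraries correlated at 0.13 to 0.647 over the 6 pairs of SuDHL10 groups, while the labels do not say what a number marks. ABCA1 had 58.4 and 51.6 CPM with both drugs, 34.2 and 37.9 with EPZ-6438, 47.4 and 51.6 with VTP50469, and 36.9 and 41.2 with DMSO. Both drugs lay above DMSO (log2 change 0.52, adjusted p = 0.018, lost without replicate 1 of both drugs at 0.177) and above EPZ-6438 (0.63 ± 0.12, adjusted p = 0.037), while EPZ-6438 overlapped DMSO. The counts moved with single libraries, to 2 with EPZ-6438 without DMSO replicate 1 and 9 without EPZ-6438 replicate 1, and, with both drugs, to 3 without DMSO replicate 2, 1 without replicate 1 of both drugs and 2 without replicate 2.

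ABCG1 in SuDHL10 had 38.5 and 37.8 CPM with both drugs, 34.3 and 29.1 with EPZ-6438, 30.9 and 28.9 with VTP50469, and 27.9 and 25 with DMSO. It rose with both drugs (0.56, adjusted p = 0.015), a call lost without either library of both drugs (0.115 and 0.107). MYLIP had 27 and 24.3 CPM with both drugs, 24.8 and 28.1 with EPZ-6438, 21.3 and 21.5 with VTP50469, and 19.8 and 20.3 with DMSO. It passed with both drugs (0.38, adjusted p = 0.051) and with EPZ-6438 (0.41, adjusted p = 0.044), but the first call was lost without any 1 of the 4 libraries (adjusted p of 0.137 to 0.331) and the second without either DMSO library or EPZ-6438 replicate 2 (0.103 to 0.179). All 3 LXR targets thus passed with both drugs, at under 1.5-fold and with a median of 0.52, against −0.02 over all genes and −0.00 over the 25 SREBP targets.

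The largest change of a member in SuDHL10 was in RXRA, which had 15.2 and 11.8 CPM with EPZ-6438, against 4.6 and 3.17 with DMSO (log2 change 1.81 ± 0.21, adjusted p = 0.0012). With both drugs it had 3.78 and 4.18 CPM and with VTP50469 3.86 and 3.8 CPM, so it was high with EPZ-6438 alone. Both drugs against EPZ-6438 gave −1.73 ± 0.21 (adjusted p = 0.0082), a call lost without either library of both drugs (0.136 and 0.131), as were those of ABCA1 (0.379 and 0.235) and TM7SF2 (0.457 and 0.434, also 0.234 without EPZ-6438 replicate 2). TM7SF2 had 51.3 and 50.2 CPM with both drugs, against 36.5 and 27.7 with EPZ-6438. HMGCS1, PMVK, IDI1, MSMO1, SC5D, STARD4 and INSIG2 were among the 15 members (5 higher, 10 lower) that passed in this contrast with the replicate block, where the share of all genes was not counted. Without the block TM7SF2, ABCA1 and RXRA made 2 higher and 1 lower of 31 (1.77% and 2.7% of all genes, 4.47% in either direction), each past 1.5-fold (1.07% and 1.32%), and the count was 0 without either library of both drugs, 2 without EPZ-6438 replicate 2 and 17 without EPZ-6438 replicate 1. INSIG2 had 16.6 and 23.7 CPM with EPZ-6438, against 12.6 and 13.8 with DMSO (0.62 ± 0.18, adjusted p = 0.057), lost without DMSO replicate 1 (0.190) or EPZ-6438 replicate 2 (0.178). INSIG1 (0.37) and ELOVL6 (0.46 with EPZ-6438, 0.54 with both drugs) rose too, and TM7SF2 rose with both drugs (0.52, adjusted p = 0.081). For the counts with 1 library left out, the share of all genes was not counted.

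Genes of the same pathway outside the 33 gave a further view. Of 11 genes of SREBP processing, acetyl-CoA supply and lipid synthesis, MI-503 raised 4 and lowered 5 in KARPAS422, 3 and 5 of 10 in DB, 1 and 1 of 10 in Farage, and 5 and 3 in SUDHL5. Over all genes MI-503 called 27% in Farage, 51.8% in KARPAS422, 55% in SUDHL5 and 69.2% in DB in either direction. Both drugs raised 2 and lowered 5 of 10 in KARPAS422 and raised 3 and lowered 0 of 11 in SuDHL10, and EPZ-6438 lowered 2 of 10 in KARPAS422 and raised 3 of 11 in SuDHL10, where both drugs called 48.7% and 21.6% of all genes in those lines and EPZ-6438 18.3% and 17.5%. ACSS2, which makes acetyl-CoA from acetate, rose in every MI-503 line, by 1.81 in SUDHL5, 1.23 in KARPAS422, 0.78 in Farage and 0.29 in DB. Under DMSO it stood at 0.083, 0.191, 1.52 and 9.01 CPM per kb of exon in the same order. The larger changes were thus in lines where its level was low. ACSS2 also rose by 2.55 with both drugs in KARPAS422 (2.01 without replicate 2 of both drugs) and by 1.68 in SuDHL10. Its DMSO levels in that experiment were also low, at 0.189 CPM per kb in KARPAS422 and 0.08 in SuDHL10. ACLY, which makes acetyl-CoA from citrate, fell by 0.66 with MI-503 in DB and by 0.64 with both drugs in KARPAS422, where FASN also fell.

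Of 7 further genes of LXR signalling, MI-503 raised 2 and lowered 0 of 5 tested in KARPAS422, 3 and 2 of 5 in DB, 0 and 1 of 6 in Farage, and 4 and 0 of 6 in SUDHL5, to be read against the same shares of all genes. Of these, PLTP, the phospholipid transfer protein, rose by 0.78 in DB and 0.75 in SUDHL5 and fell by 0.20 in Farage. NR1H3, which encodes LXR alpha, rose by 0.63 in DB. Other genes of this list went down in DB, with LPCAT3 at −0.38 and RXRB at −0.20 at equal depth. With both drugs in KARPAS422 NR1H2, which encodes LXR beta, rose by 0.79 while NR1H3 fell by 0.46 and PLTP by 0.69, and in SuDHL10 0 of 4 passed with any drug (17.5% of all genes with EPZ-6438 and 21.6% with both drugs). With the replicate number as a block, PLTP passed there with both drugs (−0.50, adjusted p = 0.0137) and with VTP50469 (−0.63, 0.0472), and NR1H2 (−0.30, 0.0126) and SMPDL3A (0.22, 0.0913) with EPZ-6438. In KARPAS422 under DMSO, NR1H2 stood at 76 CPM per kb in the combination experiment, against 10.9 in the MI-503 experiment. In GENCODE v44, 22.1% of its exon bases lie in exons of other genes. The reason for this gap was not tested, so its changes in the combination experiment may not be those of NR1H2 alone.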

How the data were processed

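The deposited values are gene counts, made by the authors from rRNA-depleted RNA-seq with HISAT2 (2.1.0) on hg38 and featureCounts (1.6.1). CASAVA (1.7) and Picard (2.23.1) also stand in the submitters' processing notes, without a role. No source used here gives the annotation, the strand setting or the handling of multi-mapping reads. The extraction kit differs between the labels (AllPrep) and the methods (Trizol). Libraries were grouped by GEO's labels, and doses and times come from the study's legends. Counts were tested with edgeR (4.0.16, R 4.3.3) by the quasi-likelihood test after filterByExpr and TMM scaling, per line, with Benjamini-Hochberg adjustment over all genes tested, at 0.1. Calls with a fold above 1.5 were also counted. CPM are TMM-scaled over the 16 libraries of a table, and ± is the standard error of the fit unless given as SD. The tables were never tested against each other. Depth of 8956156 to 54883332 counts sets the precision, and genes under about 1 CPM rest on few counts. The members, the gene lists and the marker lists were chosen with earlier results of these data known.

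Values in every library are given for members past both thresholds, up to 8 per comparison by p, and for ABCA1, ABCG1 and MYLIP. A few others were named after their values were seen. Alternatives were DESeq2 (1.42.0), other scalings, no filter, thinning to equal depth, a pooled or narrower fit, a replicate block and leaving out each library. The scripts were tested on simulated data. Count intervals cover counting error only. Gene positions are from GENCODE v44. The screen files were not used here.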

Additional observations from a re-analysis of the deposited data

Results flagged for a closer look

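The change with MI-503 differed between lines for the members below, by a test of the difference itself (the interaction of line and drug in edgeR's quasi-likelihood test, adjusted p under 0.1 and a difference above 1.5-fold). Values are differences of log2 changes, the first-named line minus Farage.

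For KARPAS422 minus Farage, ABCA1 differed by −1.76, ELOVL6 by −0.63, INSIG2 by 1.36, MYLIP by 0.71 and RXRA by 2.17. For DB minus Farage, MYLIP differed by 2.09, ABCA1 by 2.98, INSIG2 by 1.26, ELOVL6 by −1.09, FADS2 by −0.77, PMVK by −0.70, FASN by −0.65 and ACACA by −0.62. For SUDHL5 minus Farage, LSS differed by 0.85, MVD by 0.81, SQLE by 0.61, SCD by 0.61, INSIG2 by 1.25 and ABCA1 by −0.90. All 3 share the Farage libraries, and INSIG2 appears in each, with 16.5 and 21.8 CPM with MI-503 in Farage, against 44.8 and 38.5 with DMSO.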

How the results depend on the processing

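Of 984 alternative values of 85 single-gene results, 894 kept their direction and their side of the threshold, 59 lost the call, 11 gained one and 20, none of them called, changed sign. Of the 68 called gene results 23 lost the call in at least 1 alternative, each of them with 1 library left out. An alternative in which the gene was not tested, or had no adjusted p, gave no value and is not among the 984. For the changed counts the cause was not tested, except that a fold above 1.5 is a stricter criterion.

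With a fold above 1.5 the members called with MI-503 numbered 1 in KARPAS422, 2 in SUDHL5, 7 in DB and 4 in Farage, those that differed from Farage 5, 9 and 6, those with both drugs in KARPAS422 5 (2 against EPZ-6438), and in SuDHL10 2 with EPZ-6438 and 0 with both drugs. DESeq2 called 10 in Farage (main 17), and in KARPAS422 10 with EPZ-6438 (3), 2 with VTP50469 (1) and 10 for both drugs against EPZ-6438 (4), and 5 for that contrast in SuDHL10 (3). The fit of all 16 libraries called 10 in Farage. For EPZ-6438 in KARPAS422, RLE size factors called 6 and equal depth 10, and for both drugs against EPZ-6438, equal depth called 7 and library totals 8. Without a filter on low counts SuDHL10 gave 1 with VTP50469 and 10 for both drugs against EPZ-6438. The 2 compared groups alone gave, in KARPAS422, 6 with EPZ-6438, 4 with both drugs and 2 for both against EPZ-6438, and in SuDHL10 1 with EPZ-6438. Both drugs in KARPAS422 without replicate 2, in the 2 groups alone and chosen after seeing the data, gave 6.

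Leaving out 1 library at a time gave, with MI-503, 5 to 21 in Farage, 24 to 26 in DB, and 18 to 21 in KARPAS422 and in SUDHL5. For the differences from Farage it gave 8 to 17 (KARPAS422), 19 to 27 (DB) and 17 to 24 (SUDHL5), and for SuDHL10 against KARPAS422 19 to 24. In KARPAS422 it gave 0 to 4 with EPZ-6438, 0 to 1 with VTP50469, 10 to 26 with both drugs and 0 to 22 for both against EPZ-6438. In SuDHL10 it gave 2 to 9, 0 to 0, 1 to 4 and 0 to 17 in the same order. For a lone library the spread is assumed to be that of the other groups. The share of all genes called with 1 library left out was not counted, so these counts may not be particular to the members.

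With the replicate number as a block, 5 members were called with EPZ-6438 in KARPAS422, 8 for both drugs against EPZ-6438 there, and in SuDHL10 13 with EPZ-6438, 3 with VTP50469, 11 with both drugs and 15 for both against EPZ-6438. The counts elsewhere with the block were 24 (KARPAS422), 28 (DB), 21 (Farage) and 20 (SUDHL5) with MI-503, and 1 with VTP50469 and 15 with both drugs in KARPAS422. For none of these block counts was the share of all genes counted. Replicate numbers can also be compared between groups. Deviations of same-numbered libraries correlated at 0.148, 0.0993, −0.0874 and −0.337 in those 4 lines, and at 0.13 to 0.81 in the combination experiment. Each pair of groups in the combination experiment was thus above 0.1, but the labels do not say what a number marks and each group has only 2, so the fit without the block was kept as planned. Crossing the numbers in SUDHL5, a setting chosen after seeing the data, called 22 (19 higher, 3 lower).

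The sign of uncalled log2 changes depended on the setting. MYLIP in SUDHL5 with MI-503 was 0.0036 with DESeq2 and 0.027 with the replicate block. MYLIP with EPZ-6438 in KARPAS422 was 0.10 with library totals, 0.032 with no filter, 0.0020 with the block and 0.0098 in the 2 groups alone. ABCG1 in KARPAS422 was −0.25 with EPZ-6438 at equal depth and 0.0068 with VTP50469 under the block. Without 1 library, ABCG1 in KARPAS422 ranged over −0.42 to 0.40 with MI-503, −0.75 to 1.77 with EPZ-6438 and −0.94 to 1.45 with VTP50469, and MYLIP over −0.16 to 0.21 in SUDHL5 with MI-503, −0.20 to 0.10 in KARPAS422 with EPZ-6438, and −0.10 to 0.044 in SuDHL10 for both drugs against EPZ-6438. ABCA1 with EPZ-6438 in SuDHL10 ranged over −0.20 to 0.011. Depth limits ABCG1 and RXRA most, at under 1 CPM in most libraries outside SuDHL10 and Farage.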
